A study of Mus musculus with 2 samples.

Results

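Potassium channels that open when calcium or sodium builds up inside the cell were followed in mouse dorsal root ganglia by RNA sequencing. The 10 genes are Kcnma1, which encodes the pore of the BK channel, its beta subunits Kcnmb1, Kcnmb2 and Kcnmb4, the SK pore genes Kcnn1, Kcnn2 and Kcnn3, the IK pore gene Kcnn4, and the sodium-activated channel genes Kcnt1 (Slack) and Kcnt2 (Slick). They were taken by symbol from tables of 23238 distinct gene symbols, and all 10 had a row. Both libraries came from wild-type mice and were labelled as ganglion neurons. One group received acetone, ether and water (AEW), a treatment used to model dry skin, and the other with water alone, here called the control. Treatment lasted 5 days and tissue was taken on day 6. RNA of 6 animals went into each group. The labels' pooling is taken to mean 1 pool and 1 library per group, so no p-value can be given and no difference has a replicate check. Strain, age and sex of the mice are not stated in the sources used here.

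These channels pass potassium out of the cell after it has been active. BK channels respond to calcium and voltage together and help to end the action potential, SK and IK channels respond to calcium through bound calmodulin and carry slower after-potentials, and Slack and Slick respond to sodium. In sensory neurons such currents limit how readily and how often a cell fires. Beta subunits sit beside the BK pore and change its calcium sensitivity and gating. The Kcnmb1 product is best known from smooth muscle, that of Kcnmb2 can inactivate the channel, and that of Kcnmb4 is the main form in brain.

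The pore genes share the signature of potassium channels, a short loop that selects potassium over sodium. The coding bases of that loop are shown to place the 3 pore families side by side. Capitals mark the 15 bases of the 5 selectivity filter codons, with 18 bases on each side, read 5′ to 3′ from GENCODE M21 transcripts. The SK pore gene Kcnn2 is not among those shown.
Kcnma1: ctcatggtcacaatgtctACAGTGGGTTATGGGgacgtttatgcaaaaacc
Kcnn1: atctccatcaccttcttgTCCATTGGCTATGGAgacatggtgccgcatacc
Kcnn3: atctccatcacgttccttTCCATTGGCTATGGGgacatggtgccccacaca
Kcnn4: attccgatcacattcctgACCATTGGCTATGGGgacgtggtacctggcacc
Kcnt1: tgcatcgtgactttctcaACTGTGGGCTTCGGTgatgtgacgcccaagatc
Kcnt2: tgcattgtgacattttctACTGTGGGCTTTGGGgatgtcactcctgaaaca

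Kcnn1 and Kcnn3 were identical at 44 of these 51 bases, Kcnn1 and Kcnn4 at 38, and Kcnt1 and Kcnt2 also at 38. Kcnma1 matched Kcnt2 at 34 bases and Kcnn1 at 26. The longest coding run that Kcnn1 shared exactly with Kcnn4 had 31 bases and encodes part of the calmodulin-binding stretch of these channels. Its 22 capital bases also occur in Kcnn3.
Kcnn1 and Kcnn4: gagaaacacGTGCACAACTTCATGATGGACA

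These runs bear on whether reads of one member could be counted for another. Of 45 pairs of members, 1 shared a run of 50 bases or more, and that run, between Kcnmb4 and Kcnn1, had 52 bases. None of the 50-base stretches of Kcnmb2, Kcnn3, Kcnn4 or Kcnt1 occurred in an annotated transcript of another gene, and 0.217% of those of Kcnmb1 did. For Kcnmb4 the figure was 30.7%, which includes stretches shared with the antisense genes Kcnmb4os1 and Kcnmb4os2. The read length and the handling of reads with several matches are unstated in the sources used here.

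Summed over all rows, counts came to 9333882 for the control and 14376228 for AEW. Of the library totals, the 10 channel genes took 0.0160% in the control and 0.0268% after AEW. Levels are given as CPM, counts scaled to a common library size by TMM, a method that sets the libraries on the middle of the gene-wise ratios. Each AEW to control ratio has an exact 95% counting interval, which covers the sampling of reads and not differences between animals, dissections or library preparations. A gene was measured at a summed count of 20 or more, and counted as higher or lower if it differed by 1.5-fold or more with an interval clear of 1. All 10 members were measured, but Kcnn3 only just, with a summed count of 20.

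Calls differed between members of the same family. Kcnmb1 was the member with the largest excess in the AEW library at 2.74-fold (2.43 to 3.10). Kcnt1 at 1.76-fold (1.51 to 2.06) and Kcnn1 at 1.65-fold (1.34 to 2.06) were also called higher. Scaled on the median of neuronal markers, Kcnt1 and Kcnn1 lay near the control, at log2 ratios of -0.0022 and -0.095, and were not called. By TMM, Kcnn2 was called lower, 3.41-fold (1.65 to 7.45), on few reads. Thus 3 of 10 members were higher, beside 17.3% of all 14854 measured genes, and 1 of 10 was lower, beside 14.9% of all measured genes. The median log2 ratio of the members was 0.31 and that of all measured genes was 0.03. With 10 genes, neither count is read as a property of the members.

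**Figure D1:**
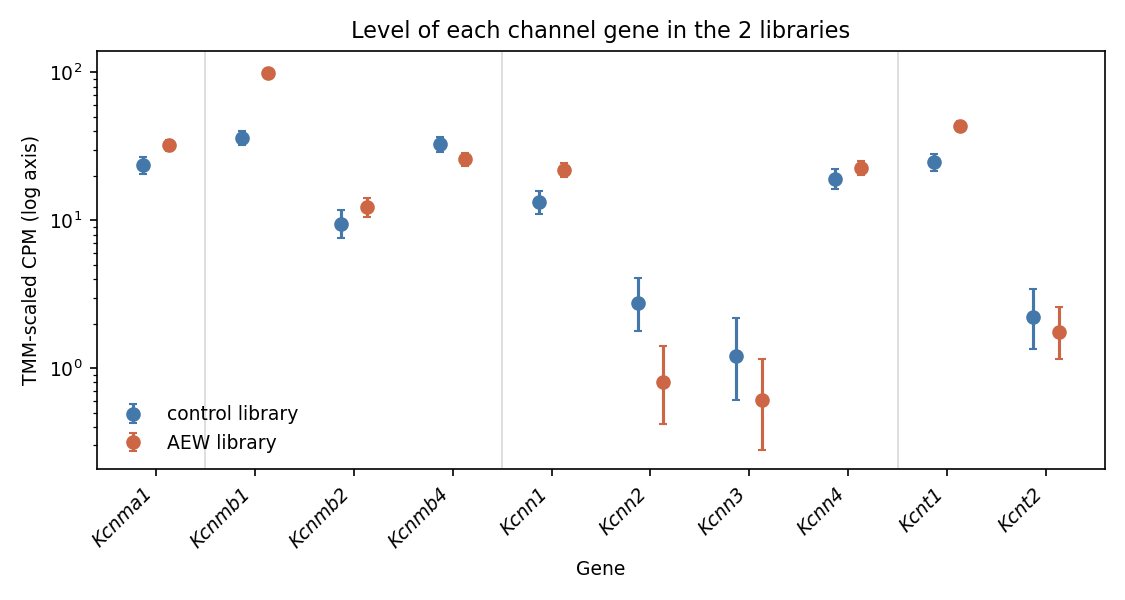
TMM-scaled CPM (log axis) of the 10 channel genes in the control (blue) and AEW (orange) libraries, with exact 95% Poisson intervals as bars and 1 library per group. Kcnmb1 has the largest excess in the AEW library, at 36.1 CPM in the control and 98.9 CPM after AEW. Kcnn2 is set farthest apart on this axis, at 2.76 CPM in the control and 0.810 CPM after AEW. Kcnn2, Kcnn3 and Kcnt2 lie below 3 CPM in both libraries.

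Kcnma1, the BK pore gene, had 213 counts in the control and 475 after AEW. These correspond to 23.5 CPM (95% Poisson interval 20.5 to 26.9) and 32.1 CPM (29.2 to 35.1). The Poisson intervals did not overlap, yet the ratio of 1.36 (1.16 to 1.61) was under the 1.5-fold limit and was not called. Scaled on the median of neuronal markers, its log2 ratio was -0.38, so its direction depends on the scaling.

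Kcnmb1 had 327 counts in the control and 1466 after AEW. Its level was 36.1 CPM (32.3 to 40.3) in the control and 98.9 CPM (93.9 to 104.1) after AEW. It was called higher under each of the 12 other settings tried, with log2 ratios between 0.63, on the scale of neuronal markers, and 1.58. Neither of the other beta genes was called. Kcnmb2 had 86 and 182 counts, 9.50 and 12.3 CPM, and a ratio of 1.29 (0.995 to 1.69), an interval that includes 1. Kcnmb4 had 296 and 385 counts, 32.7 and 26.0 CPM, and a ratio of 0.795 (0.681 to 0.928), lower in the AEW library but not past the limit.

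The composition of the beta genes therefore differed between the libraries. Kcnmb1 held 46.1% (exact Clopper-Pearson interval 42.4 to 49.9) of the counts of the 3 beta genes in the control and 72.1% (70.1 to 74.1) after AEW. Kcnmb4 held 41.7% (38.1 to 45.5) and 18.9% (17.3 to 20.7). Kcnmb2 held 12.1% (9.82 to 14.8) and 8.95% (7.75 to 10.3). Per kilobase of annotated exon, Kcnmb4 held 45.8% and Kcnmb1 40.1% in the control. The Poisson intervals of their levels per kilobase overlapped there, so no leading gene is read. In the AEW library Kcnmb1 held 66.8% and Kcnmb4 22.1%. These shares per kilobase would not apply if reads came from transcript ends.

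**Figure D2:**
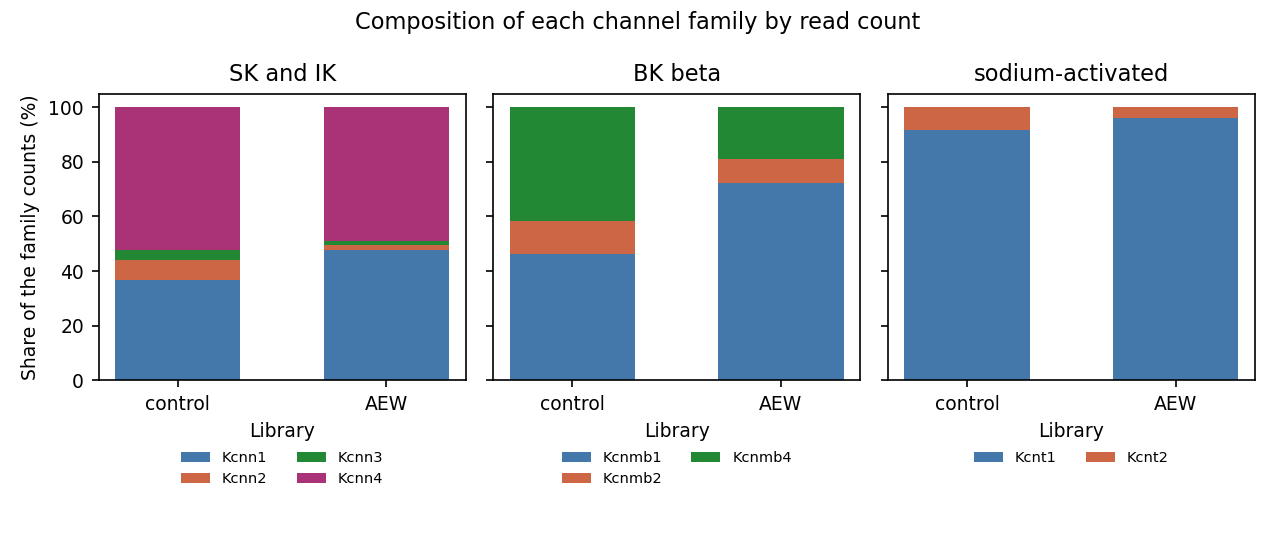
Share of the summed counts of each channel family (%, linear axis from 0) held by each gene in the control and AEW libraries, for SK and IK pore genes, BK beta subunits and sodium-activated channels. The Kcnmb1 segment is 46.1% of the beta counts in the control and 72.1% after AEW, and Kcnn2 shrinks from 7.62% to 1.76% of the SK and IK counts.

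Kcnmb1 (ENSMUSG00000020155.2, mm10 chromosome 11, 33963013 to 33973641, plus strand) lies wholly inside Kcnip1, the gene of a Kv4 channel-interacting protein, which runs from 33629339 to 33993152 on the minus strand in GENCODE M21. No Kcnip1 exon falls between the ends of Kcnmb1, and the nearest one is 19108 bases from a Kcnmb1 exon. Kcnip1 had 255 counts in the control and 1349 after AEW, a ratio of 3.23 (2.82 to 3.71). Hence the neighbours on opposite strands were both higher. The count ratio of Kcnmb1 to Kcnip1 was 1.28 in the control and 1.09 after AEW, and the quotient of these ratios was 0.847 (0.705 to 1.02), an interval that includes 1. Whether counting used strand is unstated in the sources used here, so reads from unspliced Kcnip1 RNA and reads from Kcnmb1 cannot be told apart, and the part of the former in the Kcnmb1 counts was not tested. Kcnip1 was chosen for its place and after its value was known.

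**Figure D3:**
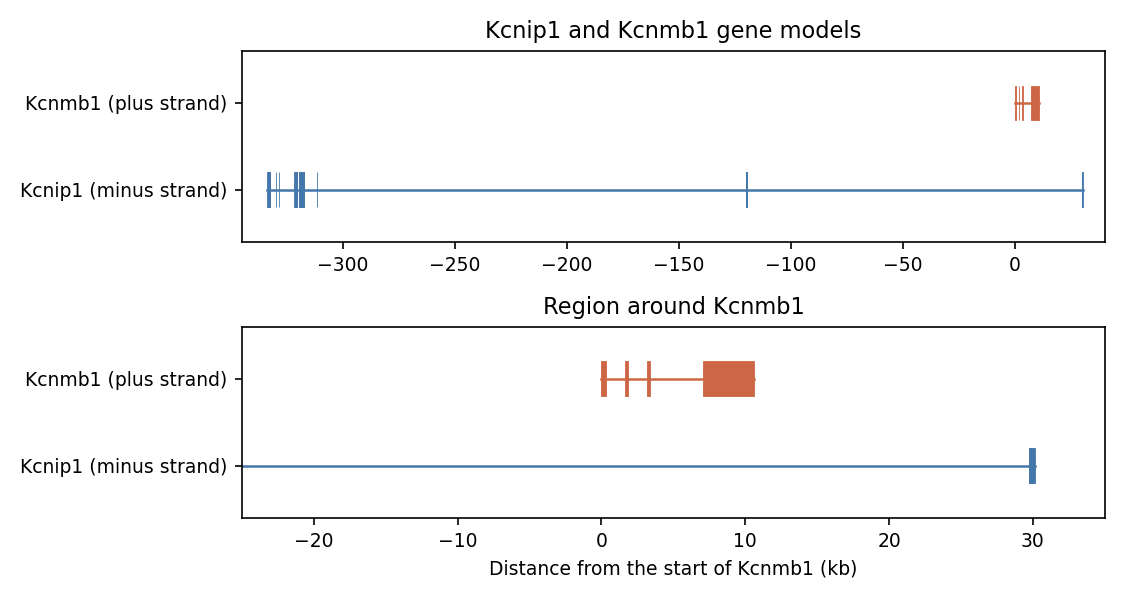
Exons (boxes) and gene spans (lines) of Kcnip1 and Kcnmb1, drawn to scale as distance from the start of Kcnmb1 in kb, with the whole of Kcnip1 above and the region around Kcnmb1 below. Kcnmb1 sits on the opposite strand inside an intron of Kcnip1 and shares no exon with it.

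The bases before the start of Kcnmb1 are shown because this gene had the largest excess in the AEW library. Beside them are those of Kcnt2, a member not called, picked after its values were seen. Neither window holds an annotated exon. Both are the 250 bases before the RefSeq transcript start (GRCm38.p6, plus strand), chr11:33962763-33963012 for Kcnmb1 and chr1:140245468-140245717 for Kcnt2. Capitals mark each CG dinucleotide.
Kcnmb1: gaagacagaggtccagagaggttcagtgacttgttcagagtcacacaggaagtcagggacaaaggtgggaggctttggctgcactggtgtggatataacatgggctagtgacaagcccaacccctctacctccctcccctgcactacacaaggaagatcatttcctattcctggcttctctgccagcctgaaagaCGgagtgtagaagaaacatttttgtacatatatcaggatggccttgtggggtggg
Kcnt2: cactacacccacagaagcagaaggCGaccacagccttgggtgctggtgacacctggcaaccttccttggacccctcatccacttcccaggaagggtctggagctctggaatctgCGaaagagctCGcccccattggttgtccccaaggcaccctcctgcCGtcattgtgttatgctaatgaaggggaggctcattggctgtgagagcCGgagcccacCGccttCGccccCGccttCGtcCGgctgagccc

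The Kcnmb1 window held 1 CG dinucleotide at 50.8% GC, and the Kcnt2 window 10 at 61.6% GC. The median of 32851 RefSeq windows was 6 at 52.4% GC. Searched on both strands, the letters GGGCGG of the Sp1 site occurred in neither window, while 32.7% of all windows held them. The letters TATAAA, searched likewise and known from core promoters, also occurred in neither, while 12.4% of all windows held them. Of the 10 members, 8 had a RefSeq window. Those of Kcnma1 and Kcnmb4 held 31 and 43 CG dinucleotides, but unlike the 2 windows shown they lay wholly in annotated exons.

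Smooth muscle is the best known source of Kcnmb1. Of 10 smooth muscle and mural markers none was higher, 2 were lower and 8 neither, and their summed level was 290.0 CPM in the control and 194.1 CPM after AEW. No marker of the list was at 0. Log2 ratios in the list ran from -1.18 to 0.14, with a median of -0.41. Acta2, smooth muscle actin, had the lowest ratio of the list, 0.442 (0.401 to 0.486). That of Myh11, smooth muscle myosin, was 0.973 (0.822 to 1.15). The part of smooth muscle in the Kcnmb1 counts was not tested.

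Among the calcium-only channels, Kcnn1 and Kcnn4 carried most of the reads. Kcnn1, an SK pore gene, had 120 counts (13.3 CPM, 11.0 to 15.8) in the control and 325 (21.9 CPM, 19.6 to 24.4) after AEW. Its ratio of 1.65 was called under 7 of 12 other settings, and its log2 ratio was 0.58 after correction for transcript GC content and -0.095 on the neuronal marker scale, where the sign turned. Kcnn4, the IK pore gene, had 172 counts (19.0 CPM, 16.3 to 22.1) and 334 counts (22.5 CPM, 20.2 to 25.1). Its ratio of 1.19 (0.984 to 1.43) had an interval that included 1, and no setting called it.

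The other SK genes had few reads. Kcnn2 had 25 counts in the control (2.76 CPM, 1.79 to 4.08) and 12 in the AEW library (0.810 CPM, 0.418 to 1.41), although the AEW library was 1.54 times as deep. Its ratio was 0.293 (0.134 to 0.606), and it was called lower in 10 of the 11 other settings in which it was measured. The exception required a distance of more than 3 scaled deviations from the 500 genes nearest in expression. Kcnn3 had 11 and 9 counts, 1.21 and 0.607 CPM, and its ratio of 0.4998 (0.183 to 1.33) was not distinguishable from 1 at this depth.

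Among the SK genes the share of Kcnn1 was larger in the AEW library. It held 76.9% (69.5 to 83.3) of the counts of Kcnn1, Kcnn2 and Kcnn3 in the control and 93.9% (90.9 to 96.2) after AEW. Kcnn2 held 16.0% (10.6 to 22.7) and 3.47% (1.80 to 5.98). Their intervals did not overlap for either gene. Kcnn4 took 52.4% (46.9 to 58.0) of all SK and IK counts in the control and 49.1% (45.3 to 52.9) after AEW, and these intervals overlapped.

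Kcnn4 is also known from red blood cells, immune cells and epithelia, whose markers differed widely between the libraries. Macrophage markers were lower in 14 of 15 (summed 940.6 CPM in the control and 356.9 CPM after AEW), lymphocyte markers in 2 of 5 measured (34.6 and 13.2 CPM) and red blood cell markers in 6 of 9 (56192 and 33592 CPM). Keratinocyte and hair follicle markers were higher in 12 of 12 measured, from 27.6 to 907.7 CPM. Each of these lists had all its members with a row above 0 in at least 1 library. The part of these cells in the Kcnn4 counts was not tested. In pooled tissue, fewer cells of a type and less RNA per cell cannot be told apart.

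Kcnt1, the Slack gene, had 223 counts (24.6 CPM, 21.5 to 28.1) in the control and 644 (43.5 CPM, 40.2 to 46.9) after AEW. It was called higher under 9 of 12 other settings. On the neuronal marker scale its log2 ratio was -0.0022. Kcnt2, the Slick gene, had 20 counts (2.21 CPM, 1.35 to 3.41) and 26 counts (1.75 CPM, 1.15 to 2.57), with a ratio of 0.794 (with an interval from 0.426 to 1.5005) that could not be distinguished from 1. Kcnt1 held 91.8% (87.6 to 94.9) of the reads of the pair in the control and 96.1% (94.4 to 97.4) after AEW.

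Pairs of genes were compared directly, since the quotient of their count ratios depends neither on library scaling nor on gene length. Of 9 pairs, 7 had an exact interval that excluded 1, without adjustment for the number of pairs. The ratio of Kcnmb1 to Kcnma1 was 1.54 in the control and 3.09 after AEW, a quotient of 2.01 (1.63 to 2.47). For Kcnmb4 to Kcnma1 the count ratio was 1.39 and 0.811, a quotient of 0.583 (0.464 to 0.732). Relative to their own pore gene, then, Kcnmb1 was more abundant and Kcnmb4 less abundant in the AEW library, and for Kcnmb2 the quotient was 0.949 with an interval (0.694 to 1.30) that includes 1.

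Kcnn2 was set against 4 other channel genes, and 3 of the quotients excluded 1. The quotient was 5.64 (2.62 to 12.7) for Kcnn1 over Kcnn2, 4.05 (1.90 to 9.04) for Kcnn4 over Kcnn2 and 0.215 (0.0968 to 0.456) for Kcnn2 over Kcnma1. For Kcnn3 over Kcnn2 it was 1.70 (0.478 to 5.98), which includes 1. Kcnt1 over Kcnt2 gave 2.22 (1.15 to 4.23) and Kcnt1 over Kcnma1 gave 1.29 (1.03 to 1.63), whose lower bound is near 1.

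**Figure D4:**
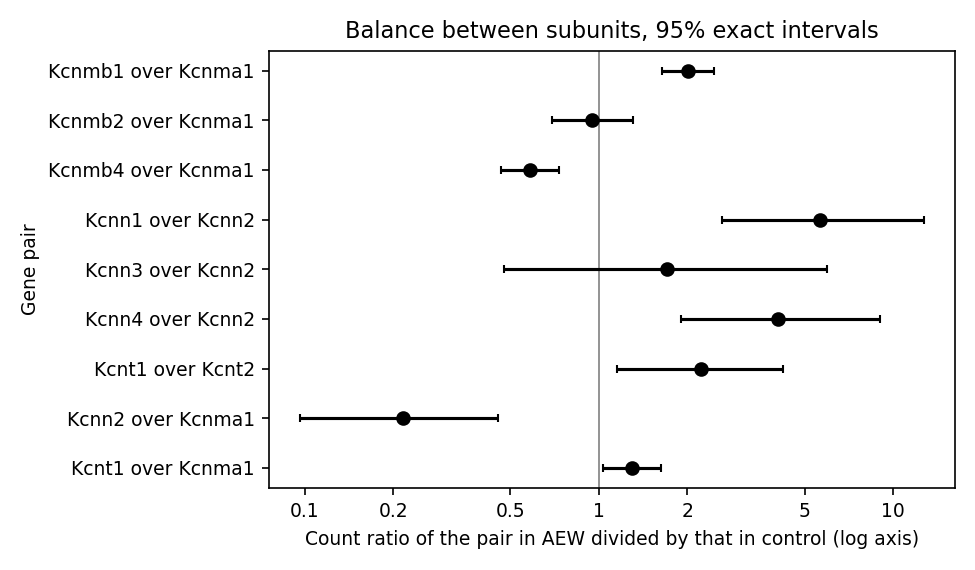
Count ratio of each of 9 gene pairs in the AEW library divided by that in the control (log axis), with exact conditional 95% intervals, 1 library per group. Kcnmb1 over Kcnma1 lies at 2.01 and Kcnmb4 over Kcnma1 at 0.583, on opposite sides of 1, while the intervals of Kcnmb2 over Kcnma1 and Kcnn3 over Kcnn2 include 1.

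The libraries also differed in the summed level of neuronal markers, so each member was set against these markers as well. The cause of the difference in the markers was not tested. The 22 pan-neuronal markers had 97641 counts in the control and 248411 after AEW, 10784 and 16761 CPM, a ratio of 1.55. Their median log2 ratio was 0.82. Single markers ran from -0.22 (Map2) to 1.73 (Rbfox3), a range that includes the 1.45 of Kcnmb1 by TMM. Of the 22, 14 were called higher and none lower, and none was at 0. Set against the summed neuronal counts, Kcnmb1 was 1.76-fold higher (1.56 to 1.99), Kcnt1 1.14-fold (0.973 to 1.33) and Kcnn1 1.06-fold (0.861 to 1.32), the last pair with intervals that include 1. Kcnma1, at 0.877 (0.744 to 1.04), and Kcnmb2, at 0.832 (0.640 to 1.09), also included 1. On this basis Kcnmb4 was 1.96-fold lower (1.67 to 2.28) and Kcnn2 5.30-fold lower (2.57 to 11.6). The values of Kcnn4 at 0.763 (0.633 to 0.923), Kcnt2 at 0.511 (0.274 to 0.965) and Kcnn3 at 0.322 (0.118 to 0.854) lay below 1 as well. Scaled on the markers' median instead of their sum, Kcnt1 and Kcnn1 had log2 ratios of -0.0022 and -0.095, so their sign depends on the neuronal scale.

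**Figure D5:**
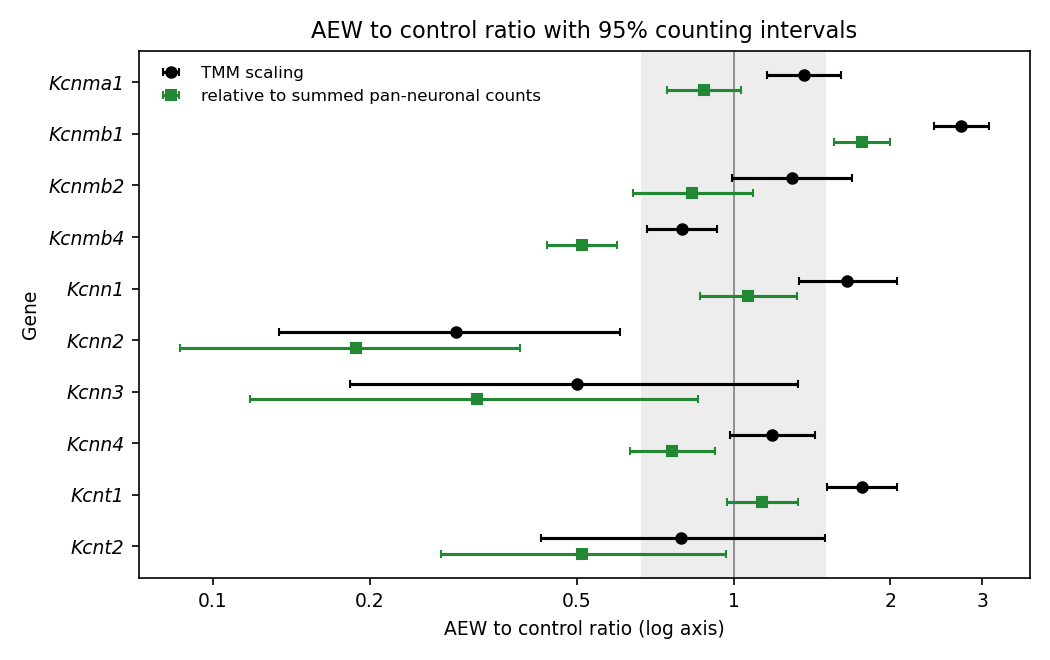
AEW to control ratio of each channel gene (log axis) with 95% counting intervals, by TMM scaling (black circles) and relative to the summed counts of 22 pan-neuronal markers (green squares). The grey band spans ratios within 1.5-fold of 1. Kcnmb1 lies above the band on both scales, at 2.74 and 1.76, whereas Kcnt1 and Kcnn1 lie above it by TMM only, and Kcnmb4 drops from inside the band to below it.

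No marker of the other ganglion cells listed here was called higher. Of 8 satellite glia markers 1 was lower and 7 neither, and of 9 Schwann cell markers 2 were lower and 7 neither. Endothelial markers, of interest because endothelium uses Kcnn3 and Kcnn4, were lower in 3 of 8. Among sensory neuron classes, 7 of 10 markers of unmyelinated and peptidergic neurons were higher and 2 of 10 markers of large myelinated neurons, with none lower in either list. The cell type label of neurons thus covers libraries that also held RNA of glia, blood, muscle and connective tissue. Keratinocyte and hair follicle markers were found mostly in the AEW library, with 27.6 CPM in the control and 907.7 CPM after AEW when summed.

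Levels were compared between genes per kilobase of annotated exon, with exact Poisson intervals. In the control the order was Kcnmb4 at 9.84 CPM per kb, Kcnmb1 at 8.62, Kcnn4 at 3.71, Kcnmb2 at 3.04, Kcnn1 at 2.89 and Kcnt1 at 2.59. Below them came Kcnma1 at 1.39, Kcnn2 at 0.370, Kcnt2 at 0.320 and Kcnn3 at 0.116. Neighbours in this order had overlapping intervals except at 3 steps, from Kcnmb1 to Kcnn4, from Kcnt1 to Kcnma1 and from Kcnma1 to Kcnn2. In the AEW library Kcnmb1 stood first at 23.6 CPM per kb, clear of Kcnmb4 at 7.82, which was clear of the rest. Kcnn1 at 4.78, Kcnt1 at 4.57, Kcnn4 at 4.41 and Kcnmb2 at 3.93 overlapped their neighbours. Kcnma1 followed at 1.89, clear of both neighbours, then Kcnt2 at 0.254, Kcnn2 at 0.108 and Kcnn3 at 0.0581. The labels name a kit whose line includes 3′ end protocols. If reads came from transcript ends, division by length does not apply, and Kcnma1, with 16976 exonic bases, would stand higher in the order.

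The remaining BK partners were scarce. The gamma subunits, leucine-rich repeat proteins that make BK easier to open to differing degrees, had 2 of 4 members measured, and both were called higher. Lrrc26 had 26 and 104 counts, a ratio of 2.44 (1.58 to 3.91), and Lrrc55 had 13 and 46 counts, a ratio of 2.16 (1.15 to 4.36). Lrrc38 had 4 and 3 counts and Lrrc52 had 0 in both libraries, where 0 allows up to 3 counts, or 0.331 CPM in the control and 0.202 CPM after AEW. The remaining beta gene Kcnmb3 had 0 and 5 counts.

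Calmodulin, which SK and IK channels carry as their calcium sensor, and the kinase and phosphatase bound to SK channels numbered 9, of which 4 were higher and 1 was lower. Ppp2r1a, the scaffold subunit of protein phosphatase 2A, stood at 2.10 (1.98 to 2.23), and Ppp2cb, one of its catalytic subunits, at 0.636 (0.598 to 0.676). Among kinases and binding proteins of BK and Slack, 1 of 5 was higher, Prkaca, the catalytic subunit of protein kinase A, at 2.28 (2.13 to 2.45), and 1 was lower, Fmr1, whose product binds Slack and the beta subunit of Kcnmb4, at 0.612 (0.535 to 0.701).

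Genes for sources of the activating ions were counted in the same way, beside 17.3% higher and 14.9% lower over all measured genes. Voltage-gated calcium channel pores numbered 8, of which 3 were higher and 1 was lower. Cacna1b, the N-type pore, stood at 2.32 (2.01 to 2.70), Cacna1i at 3.26 (1.58 to 7.55) on 9 and 48 counts, and Cacna1g at 0.586 (0.386 to 0.889). Calcium store release and store-operated entry had no gene higher and 3 of 11 lower, among them Ryr1, the muscle ryanodine receptor, at 0.421 (0.336 to 0.525) and Itpr2 at 0.530 (0.473 to 0.592). Ryr1 moved beside skeletal muscle markers, of which 7 of 10 were lower, 1811 CPM in the control and 743.7 CPM after AEW when summed, and the part of muscle in this result was not tested.

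Sodium channel pores, the entry route for the ion that opens Slack, numbered 6, of which 2 were higher and none lower. Scn8a had a ratio of 2.91 (2.63 to 3.22) and Scn10a, the nociceptor channel, one of 2.35 (2.21 to 2.50). Calcium extrusion and buffering had 2 of 13 higher, Slc8a2 at 1.82 (1.32 to 2.55) and Atp2b3 at 1.54 (1.33 to 1.80), and 2 lower, Atp2a3 at 0.438 (0.318 to 0.600) and Atp2b4 at 0.608 (0.556 to 0.665). Calcium-activated chloride channels and scramblases, which answer the same signal, had 0 of 6 measured genes called in either direction. Across all pathway lists 15 of 66 measured genes were higher (22.7%) and 9 lower (13.6%), beside 17.3% and 14.9% of all measured genes, and nothing is read from these shares. On the scale of neuronal markers these numbers became 2 and 35, where 504 of all measured genes were higher and 9066 lower.

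Other potassium channel families give the setting for the members' median of 0.31. Two-pore channels had 7 of 10 measured genes higher and 1 lower, with a median log2 ratio of 1.06. Voltage-gated pore genes had 11 of 27 higher and 2 lower (median 0.57), and inward rectifiers 2 of 11 higher and 5 lower (median -0.29). Over all measured genes 17.3% were higher and 14.9% lower, with a median log2 ratio of 0.03. The median of the pan-neuronal markers was 0.82. No test of differences between these families was possible with 1 library per group. All ratios in these lists share the same libraries.

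The remaining members lie at single loci on mm10 in GENCODE M21. Kcnma1 (ENSMUSG00000063142.15) spans chromosome 14, 23289431 to 24014491, minus strand. Kcnmb2 (ENSMUSG00000037610.15) spans chromosome 3, 31902507 to 32200180, plus strand, and Kcnn3 (ENSMUSG00000000794.9) lies on the same chromosome and strand at 89520164 to 89675132. Kcnmb4 (ENSMUSG00000054934.10) spans chromosome 10, 116417861 to 116473878, minus strand. Kcnn1 (ENSMUSG00000002908.17) spans chromosome 8, 70842049 to 70863258, minus strand, and Kcnn4 (ENSMUSG00000054342.8) chromosome 7, 24370263 to 24386690, plus strand. Kcnn2 (ENSMUSG00000054477.16) spans chromosome 18, 45268860 to 45686024, plus strand. Kcnt1 (ENSMUSG00000058740.14) spans chromosome 2, 25863734 to 25918273, and Kcnt2 (ENSMUSG00000052726.15) chromosome 1, 140246158 to 140612067, both on the plus strand.

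Antisense genes overlap exons of several members. Of the exonic bases of Kcnmb4, 355 are shared with Kcnmb4os1 and 693 with Kcnmb4os2, both on the opposite strand. Kcnmb4os1 had 4 and 14 counts and Kcnmb4os2 had 12 and 13 counts, against 296 and 385 for Kcnmb4, so the antisense rows were small beside it. Of Kcnma1, 1016 exonic bases are shared with 4930519K11Rik, which had 0 counts in both libraries.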

How the data were processed

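Dorsal root ganglion RNA of 6 control and 6 AEW mice was sequenced as 1 library per group. Trizol RNA, 500 ng per library, entered a Lexogen Quant-Seq preparation, per the labels' protocols. Per the submitters' processing notes, Bowtie2, bedtools and mm10 were used, with no versions. Annotation and use of strand are unstated in the sources used here. The deposited values are whole-number read counts per symbol, not normalized (23282 rows). The 35 symbols that occur more than once, over 79 rows, stayed in the totals and out of calls.

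TMM factors (0.970 for the control and 1.03 for AEW) came from edgeR 4.0.16 in R 4.3.3. Ratio intervals are exact conditional binomial (Clopper-Pearson), pair intervals exact conditional, at 95%, by SciPy 1.17.1. They cover counting error only, and may be too narrow even for that, since reads are not independent molecules. A listed gene with 0 counts in one library entered a list median at 3 counts. Of measured genes, 14310 had a GC value from GENCODE M21 and 544 had none and were left uncorrected. Calls were tested on simulated data. Alternatives were DESeq2 1.42.0 size factors, total, upper quartile and neuronal marker scaling, count filters, thinning of the AEW library, stricter calls and GC corrections, of which that on the last 500 bases was added after seeing the data.

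Members, lists and tests were chosen with earlier results of these data known. All members are named, and of each pathway list only genes with the 2 highest lower or 2 lowest upper interval bounds, except Lrrc38 and Lrrc52 of the gamma subunits, Kcnip1, Kcnmb3 and antisense neighbours, named after their values were seen. Some genes of the pathway lists are not reported here, though they count in the totals over all pathway lists.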

Additional observations from a re-analysis of the deposited data

How the results depend on the processing

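Scaling on the median of the pan-neuronal markers moved the median log2 ratio of all measured genes from 0.03 to -0.79. It left 504 genes higher and 9066 lower over all measured genes, against 2577 and 2220, called 1 member higher (Kcnmb1) and 4 lower (Kcnmb4, Kcnn2, Kcnn3 and Kcnt2), and gave a members' median of -0.51 in place of 0.31. In the pathway lists it called 2 genes higher and 35 lower, against 15 and 9. Log2 ratios that changed sign on this scale were -0.38 for Kcnma1, -0.45 for Kcnmb2, -0.095 for Kcnn1, -0.57 for Kcnn4 and -0.0022 for Kcnt1. The construction of this scale lowers every log2 ratio by the same amount. After correction for transcript GC content Kcnt2 turned to 0.075, Kcnn1 was not called at 0.58 and Kcnmb2 was called higher at 0.66. The GC correction on the last 500 bases gave 0.64 for Kcnmb2, also called. The cause was not tested.

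At 2-fold, 1 member stayed higher (Kcnmb1) and 1 lower (Kcnn2), and the pathway lists held 9 higher and 2 lower, while all measured genes gave 1223 higher and 1018 lower. With an interval that excludes 1.5-fold, 5 pathway genes were lower, beside 1071 of all measured genes, and Kcnn1 was not called. Requiring over 3 deviations from neighbouring genes left 1 member higher and 0 lower, and 2 pathway genes higher and 0 lower, while all measured genes gave 323 higher and 98 lower. With a summed count of at least 100, 0 members were lower, because Kcnn2 was not measured. Scaling by DESeq2 size factors, total counts or the upper quartile, and no filter changed no member's call or direction, nor did thinning, after which Kcnn3 was not measured. Thinning kept each pair quotient within its interval, and leaving out 1 pan-neuronal marker kept each member's value within its own. Depth limits Kcnn2, Kcnn3 and Kcnt2, at 9 to 26 counts per library. No paired analysis was possible because each group has 1 library.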
